A study of Drosophila melanogaster with 2 samples.

Results

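The 10 genes described here, Sxl, sisA, da, emc, her, tra, msl-1, msl-2, mle and mof, act in sex determination and dosage compensation of Drosophila melanogaster. They were listed by name because the Runt domain factor run is an activator of Sxl. The rule uses no binding value, although earlier results of these data were known when the list was made. All 10 were found by symbol in the Ensembl annotation, among 13968 protein-coding genes. Binding was measured by chromatin immunoprecipitation and sequencing (ChIP-seq) in whole embryos, collected between 0 and 24 h of age, from flies with a transgene for Bgb (Big brother) that carries a green fluorescent protein tag, eGFP. The labels give 1 group with 2 biological replicates, no other genotype and no treatment. They name GFP as the target of the antibody in one entry and Bgb in another, and they do not record the sex of the embryos. Male and female embryos, every embryonic stage and all tissues are therefore averaged in each value, and signal from few cells cannot be told apart from weak signal in many.

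Bgb is the counterpart of mammalian CBF-beta, which pairs with Runt domain proteins such as Run and Lozenge without contacting DNA itself. In flies the X dose sets sex through Sxl, an RNA-binding protein that is active in females. X-linked signal elements, such as sisA and run, act with maternal proteins, such as Da, on the early promoter of Sxl before dosage compensation begins. Later the maintenance promoter is used in both sexes, and Sxl protein keeps itself on by directing the splicing of its own transcripts. Sxl then directs splicing of tra and represses msl-2, so that the MSL complex assembles on the X of males alone. These statements are background and were not measured here.

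The data are peak lists on the dm6 build. A conservative list of 4488 peaks, reproducible between the replicates by the irreproducible discovery rate (IDR), was the main list. A second IDR list held 6393 peaks, the list of replicate 1 alone 6061 and that of replicate 2 alone 3200. Each also exists as a ranked list without threshold, with 101843 peaks for the series. Signal is the authors' own value for each peak, with a median of 144 in the conservative list, and its scaling and the read depth are unknown. A gene was counted as having a peak where the window from 2 kb before its start to its last base held a summit.

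By this rule 7 of the 10 genes had a conservative peak: Sxl, tra, her, emc, msl-1, mle and mof. The share over all protein-coding genes was 37.4%. In the second list it was 9 of 10 against 45.2%, in the list of replicate 1 alone 9 of 10 against 43.7%, and in that of replicate 2 alone 6 of 10 against 29.5%. The gene da had a peak in the second list and in that of replicate 1 only, as did msl-2, and mle lacked one in the list of replicate 2. The gene sisA had none in any of the 4 thresholded lists. The 7 genes held 9 conservative peaks, with signals from 65.0 to 791. In both replicates msl-1 and her were the highest of the 10 genes and sisA was the lowest.

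**Figure D1:**
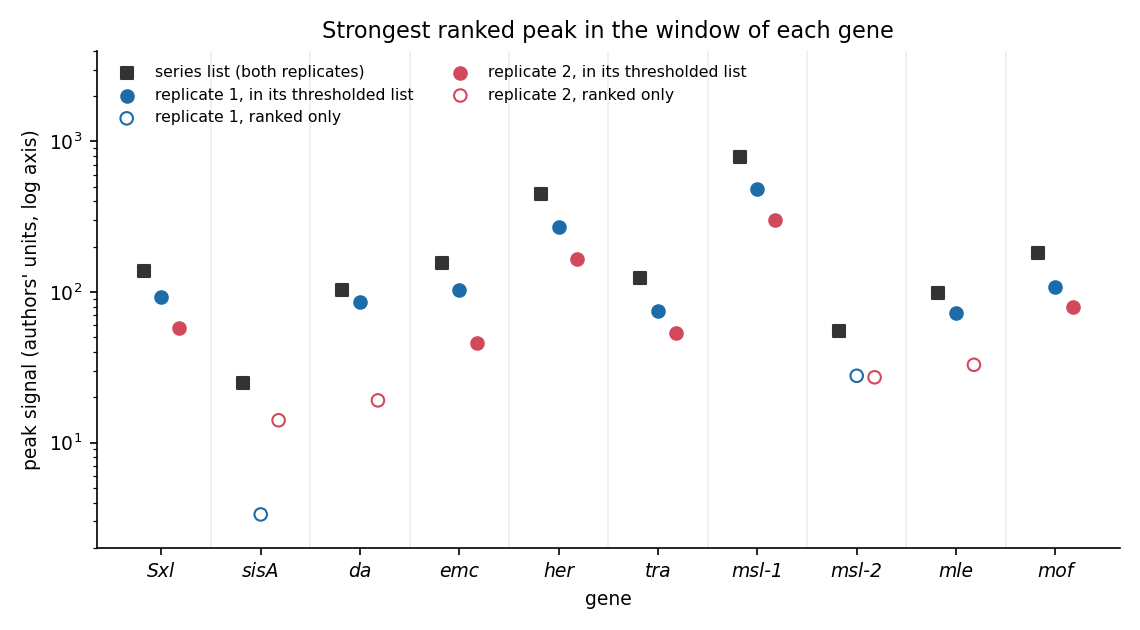
Signal of the strongest ranked peak in the window of each gene (log axis, authors' units) in the series list (squares), replicate 1 (blue) and replicate 2 (red), with open circles where the replicate's own thresholded list does not hold the peak. The genes msl-1 (791) and her (448) stand highest in all 3, and sisA (25.0) is the lowest in the series list.

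Sxl lies on the minus strand of the X and is transcribed from a late (maintenance) promoter, with its TSS (transcription start site) at position 7098053, and from an early (establishment) promoter 5170 bp further downstream. The annotation assigns 19 transcripts to the late start and 4 to the early start. All 4 early transcripts splice from their own first exon past exon 2 and the male exon. A further start with 2 transcripts lies 987 bp downstream of the late one. The conservative list held 1 peak at the late promoter, chrX:7097916-7098291, with its summit 51 bp upstream of the TSS and a signal of 138 (92.1 in replicate 1, 58.1 in replicate 2). It ranked 2374 of 4488 and was present in all 4 thresholded lists. No thresholded list held a peak within 1 kb of the early TSS.

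The weaker, ranked peaks show what signal there was at the early promoter. The strongest had a signal of 32.7, with its summit 113 bp upstream of the early TSS and a scaled IDR score of 196, where every thresholded peak has 830 or more. In replicate 1 alone its signal was 15.2 and in replicate 2 alone 20.2. Ranked peaks of similar signal lay elsewhere in Sxl. The series list had 33.5 at 2280 bp downstream of the late TSS (score 178), and replicate 1 had 19.4 at 1151 bp. Replicate 2 had 18.1 at 2312 bp. Set against the 19275 annotated TSSs of protein-coding genes, with the strongest ranked signal within 500 bp taken for each, the late promoter stood above 82.7% and the early promoter above 46.9%. The same comparison gave 82.9% and 39.2% in replicate 1, and 84.5% and 59.4% in replicate 2. The late promoter was thus the higher of the pair in both replicates. The early promoter is known to act briefly in young female embryos, and a collection of 0 to 24 h does not separate that stage or sex.

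Sxl had a second conservative peak, chrX:7094219-7094594, inside the long intron after the late first exon. Its summit lay 3646 bp downstream of the late TSS and 1524 bp upstream of the early TSS. Its signal was 75.9 (41.3 in replicate 1, 29.1 in replicate 2), rank 3933, and neither replicate's own thresholded list held it. The series list held 17 ranked peaks in the window of Sxl, replicate 1 held 19 and replicate 2 held 7. Over the whole window of 25.5 kb, density in the series list was 0.667 ranked peaks per kb, against a median of 1.20 over protein-coding genes. The 17 peaks were not spread evenly. All lay between 1967 bp upstream and 8558 bp downstream of the late TSS, and the rest of the window held none.

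**Figure D2:**
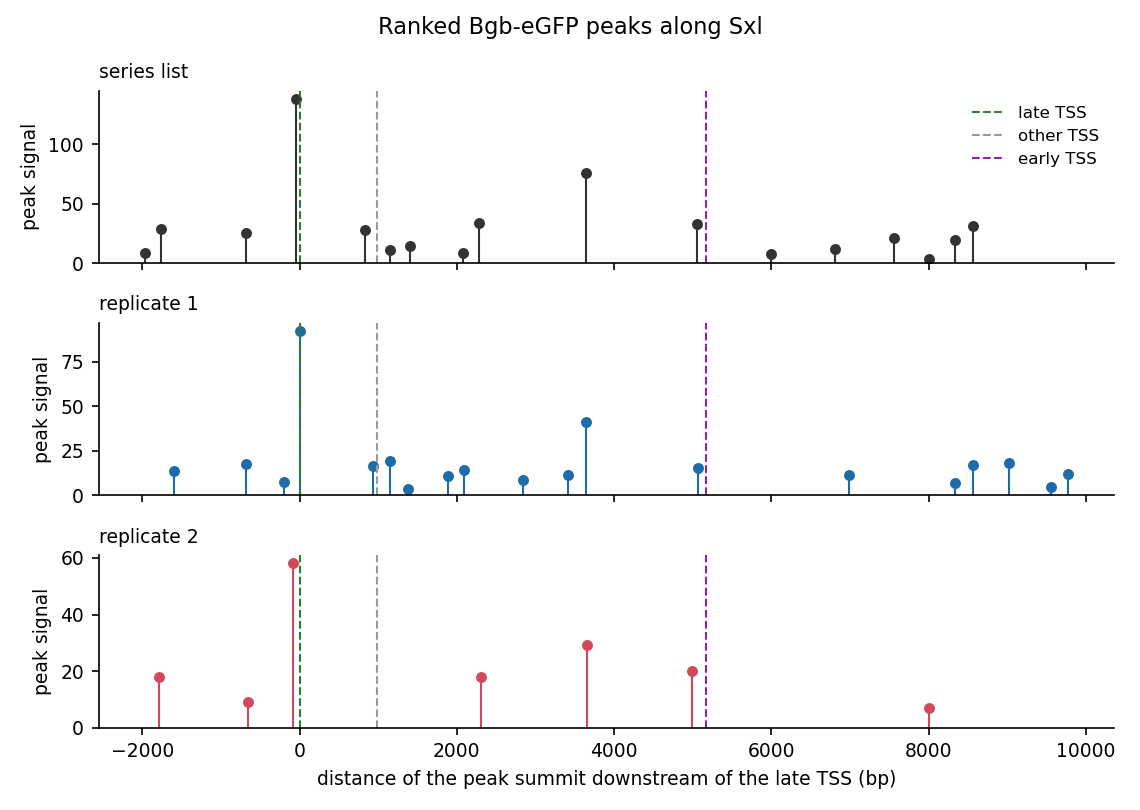
Ranked Bgb-eGFP peaks along Sxl by distance of the summit from the late TSS (bp, positive downstream), with signal in authors' units for the series list, replicate 1 and replicate 2, and dashed lines at the late, other and early TSS. In each panel the highest peak stands at the late TSS (138, 92.1 and 58.1) and the next at the intron site (75.9, 41.3 and 29.1), above the peak beside the early TSS (32.7, 15.2 and 20.2).

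The sequences under the 2 conservative peaks of Sxl and under the ranked peak at the early promoter, which passed no threshold, are shown. They were chosen because run is known to activate Sxl. Each is the 101 bp around the summit in dm6 read 5′ to 3′ on the minus strand, and capitals mark matches to a searched motif other than the E-box. The late promoter window, chrX:7098054-7098154, holds GTGTGACC, the reverse complement of the M1BP motif GGTCACAC. The intron window, chrX:7094357-7094457, holds only an E-box, cacttg. The early promoter window, chrX:7092946-7093046, holds CTACCTG, the reverse complement of the Zelda motif CAGGTAG.
Sxl late: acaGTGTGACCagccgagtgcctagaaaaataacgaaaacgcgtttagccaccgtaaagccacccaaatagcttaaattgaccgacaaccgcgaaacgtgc
Sxl intron: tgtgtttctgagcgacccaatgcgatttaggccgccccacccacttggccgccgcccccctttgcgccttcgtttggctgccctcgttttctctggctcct
Sxl early: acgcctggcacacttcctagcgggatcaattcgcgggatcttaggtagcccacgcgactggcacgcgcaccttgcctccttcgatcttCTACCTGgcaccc

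The Runx motif was searched as AACCACA together with its variant AACCGCA, likewise as GACCACA together with its variant GACCGCA, on both strands. None of the 3 windows holds it. In the 1500 bp upstream of the late TSS there was 1 match, GACCGCA, on the strand opposite to the gene between 1077 and 1083 bp from the TSS. In the 1500 bp upstream of the early TSS there were 0. At least 1 match occurs in the same span upstream of 47.2% of 13967 protein-coding genes. The Zelda match lay between 69 and 75 bp upstream of the early TSS, and 9.84% of genes have one in their 1500 bp. The M1BP match lay between 91 and 98 bp upstream of the late TSS, and 9.17% of genes have one. The E-box CANNTG, the kind of site bound by bHLH proteins such as Da, occurred 7 times upstream of the late TSS and 6 times upstream of the early TSS, where the median gene has 8. Its forms CAGCTG and CAGGTG each had 1 match upstream of the early TSS and 0 upstream of the late TSS. At least 1 match occurs in 52.6% and 49.3% of genes, and the form CATATG had 0 at both promoters. These matches describe letters and do not show that a factor was bound.

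Of the 4 regulators of Sxl among the 10 genes, her was the strongest. It encodes a zinc finger protein needed for Sxl activation and for later sexual differentiation. Its 1 conservative peak, chr2L:16677050-16677281, had a signal of 448 (272 in replicate 1, 166 in replicate 2), ranked 445 of 4488 and had its summit 9 bp upstream of the her TSS. The TSS of Trpgamma, a TRP channel gene on the other strand, was 475 bp from the summit. The gene emc encodes a helix-loop-helix protein without a DNA-binding region, which holds bHLH proteins such as Da inactive. Its peak, chr3L:749212-749587, had a signal of 155 (103 in replicate 1, 45.6 in replicate 2), rank 2097, with the summit on the TSS itself.

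The gene da encodes the broadly expressed bHLH partner that activates Sxl together with X-linked proteins. Its promoter peak, chr2L:10387862-10388237, had a summit 55 bp upstream of the TSS and a signal of 104. It passed in the second list, while in the ranked form of the conservative list its scaled IDR score was 213. Replicate 1 gave 86.0 and replicate 2 gave 19.1, so the peak was in the thresholded list of replicate 1 and outside that of replicate 2. The ratio of 4.51 between the replicates was above that of 95.4% of the 6156 peaks of the second list with a value in both.

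The gene sisA encodes a bZIP X-linked signal element that is transcribed briefly in the early embryo. Its window held 5 ranked peaks with signals from 3.58 to 25.0, all with the score of 26. The strongest, 384 bp inside the gene, was 3.33 in replicate 1 and 14.1 in replicate 2. The genes da and sisA both act on Sxl in the blastoderm. Their promoter values, the strongest ranked signal within 500 bp of the TSS, were 104 and 25.0 in the series list. In replicate 1 alone they were 86.0 and 4.05, but in replicate 2 alone they were close, at 19.1 and 14.1.

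The summit windows of her, emc and da are printed because 2 of them repeat a short sequence and the third does not. They are on the plus strand, with her and emc cut off at or soon after the TSS. Capitals mark ATCGAT at her, and CGATAA or CGATAG (the BEAF-32 motif, here also as the reverse complements TTATCG and CTATCG) and ATCGAT at da. Both sequences are common, with ATCGAT in 30.6% and the BEAF-32 motif in 38.1% of all conservative windows. ATCGAT was added to the search after the windows were read. The window of emc holds none of the searched motifs. The da window holds 4 BEAF-32 matches, of which 1 overlaps ATCGAT. Their positions are chr2L:16677126-16677208 for her, chr3L:749350-749399 for emc and chr2L:10388000-10388100 for da.
her: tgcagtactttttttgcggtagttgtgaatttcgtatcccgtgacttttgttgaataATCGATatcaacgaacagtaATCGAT
emc: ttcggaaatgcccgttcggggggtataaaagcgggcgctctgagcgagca
da: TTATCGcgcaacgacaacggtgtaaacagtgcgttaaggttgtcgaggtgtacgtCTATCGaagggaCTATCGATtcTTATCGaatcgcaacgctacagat

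Downstream of Sxl, tra encodes a splicing regulator whose functional protein is made in females only. Its 1 conservative peak, chr3L:16590957-16591332, had a signal of 124 (75.2 in replicate 1, 53.3 in replicate 2), rank 2646. The summit lay 95 bp upstream of the TSS, and all 4 thresholded lists held the peak. Its window, chr3L:16591095-16591195 on the minus strand, holds 1 BEAF-32 match in capitals.
tra: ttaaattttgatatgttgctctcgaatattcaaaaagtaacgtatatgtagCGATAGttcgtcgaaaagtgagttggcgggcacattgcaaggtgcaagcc

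Of the genes of the dosage compensation complex, msl-1 and mof had peaks at their own promoters in all 4 thresholded lists. The gene msl-1 encodes the scaffold of the complex. Its strongest peak, chr2L:18688712-18689005, had a signal of 791 (482 in replicate 1, 299 in replicate 2). It ranked 115 of 4488, the highest of the 10 genes, with its summit 60 bp upstream of the TSS. A second peak, 841 bp upstream, had a signal of 65.0 (52.6 in replicate 1, 29.5 in replicate 2) and lay 50 bp from the TSS of CG10336, a gene on the other strand. The gene mof encodes the histone acetyltransferase of the complex. Its peak, chrX:5876659-5877034, had a signal of 180 (108 in replicate 1, 79.7 in replicate 2), rank 1783, and its summit lay 6 bp inside the gene.

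The windows of msl-1, chr2L:18688810-18688910, and mof, chrX:5876854-5876897, both on the minus strand, contrast the strongest peak with one of middle rank. The msl-1 window holds none of the searched motifs. The mof window, cut off at the TSS, holds ATCGAT in 2 places, once joined to the BEAF-32 motif CGATAA.
msl-1: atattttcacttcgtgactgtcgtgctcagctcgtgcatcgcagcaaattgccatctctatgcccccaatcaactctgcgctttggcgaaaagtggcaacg
mof: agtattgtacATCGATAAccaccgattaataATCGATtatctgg

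The gene msl-2 encodes the RING finger subunit that is limiting in males and repressed by Sxl in females. It had no conservative peak. The second list held 2 weak ones. That at the promoter had a signal of 54.2 (49.3 in replicate 1, 14.2 in replicate 2), with its summit 22 bp inside msl-2 and 67 bp from the TSS of ND-PDSW, a divergent gene for a subunit of respiratory complex I. The other had a signal of 55.4 (27.8 in replicate 1, 27.1 in replicate 2) and lay in the 3′ UTR, 3355 bp from the gene start and 805 bp from the TSS of CG3246. Neither replicate's own thresholded list held the peak in the 3′ UTR. A Runx match was in 4.72% of all conservative windows, and the share of second-list windows is not given here. Both msl-2 windows hold 1 Runx match each, the only such matches among the conservative and second-list peaks of the 10 genes. They are shown with their flanks on the minus strand, at chr2L:3466075-3466099 for the promoter, where the Runx and M1BP matches overlap, and at chr2L:3462707-3462725 for the 3′ UTR.
msl-2 promoter: ctggcacacTGCGGTCACACtggct
msl-2 3′ UTR: tttttaactTGTGGTTtcg

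The gene mle, on arm 2R, encodes the RNA helicase that loads roX RNA into the complex. Its conservative peak, chr2R:5981775-5982150, had a signal of 99.2 (72.7 in replicate 1, 32.9 in replicate 2) and rank 3258. The summit lay 1185 bp upstream of the mle gene start but 119 bp from the TSS of Src42A, a Src family tyrosine kinase gene on the other strand. It counts for mle by the window rule alone. At its own starts mle had a ranked peak of 51.1, with a score of 67, 1 bp from an annotated TSS that lies inside the gene.

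**Figure D3:**
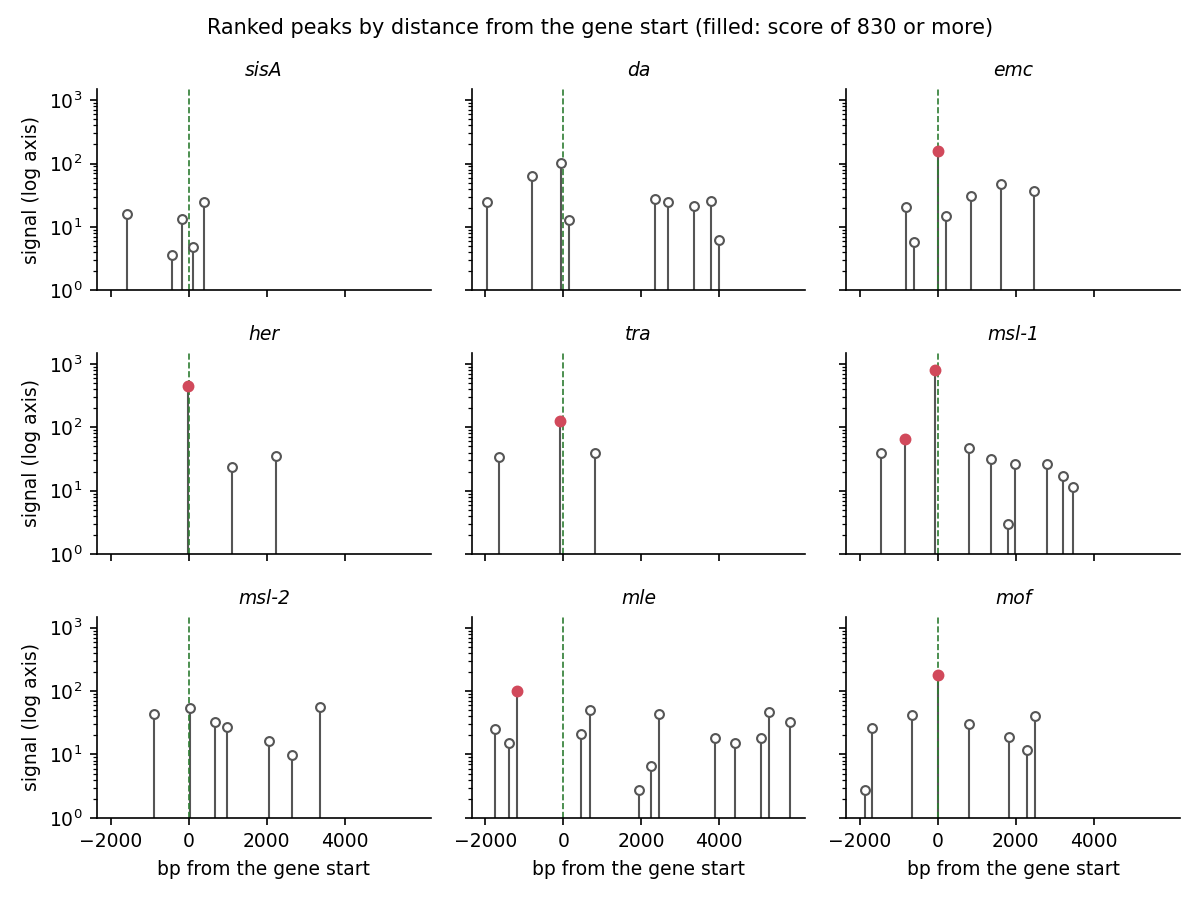
Ranked peaks of the series list for the 9 genes other than Sxl, by distance of the summit from the gene start (bp, dashed line at 0) and signal (log axis, authors' units), with filled points for scores of 830 or more. Filled points stand at the gene start of her, emc, tra, msl-1 and mof, 841 bp upstream of msl-1 and 1185 bp upstream of mle, and da, msl-2 and sisA have open points only.

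The strongest conservative summit lay within 100 bp of a TSS of the gene itself in 6 of the 7 genes with a peak, all but mle. Over the 5223 protein-coding genes with a conservative peak the share was 51.4%. By signal the same 7 genes spread widely. The median strongest signal of genes with a peak was 186, and msl-1 stood above 96.3% of them, her above 86.0%, mof above 48.4%, emc above 41.3%, Sxl above 35.2%, tra above 29.2% and mle above 17.3%.

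A comparison that includes genes without a called peak took the strongest ranked signal within 500 bp of a TSS. On it msl-1 stood above 98.8% of protein-coding genes, her above 95.6%, mof above 84.2%, emc above 82.1% and Sxl above 80.1%. Then followed tra at 78.0%, da at 74.6%, msl-2 at 58.8%, mle at 57.3% and sisA at 37.3%. The median gene of the 10 stood above 79.0%, and 9 of 10 were above the median of 39.3 over protein-coding genes. In replicate 1 the median gene of the 10 stood above 79.9%, with 9 of 10 above the median of protein-coding genes. In replicate 2 it stood above 79.5%, with 8 of 10 above that median, since msl-2 (14.2 against 17.7) fell below it as well as sisA. The order of msl-1, her and mof at the top was the same in both replicates. That of emc and Sxl was not: emc was the higher in replicate 1 (103 against 92.1) and the lower in replicate 2 (45.6 against 58.1).

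**Figure D4:**
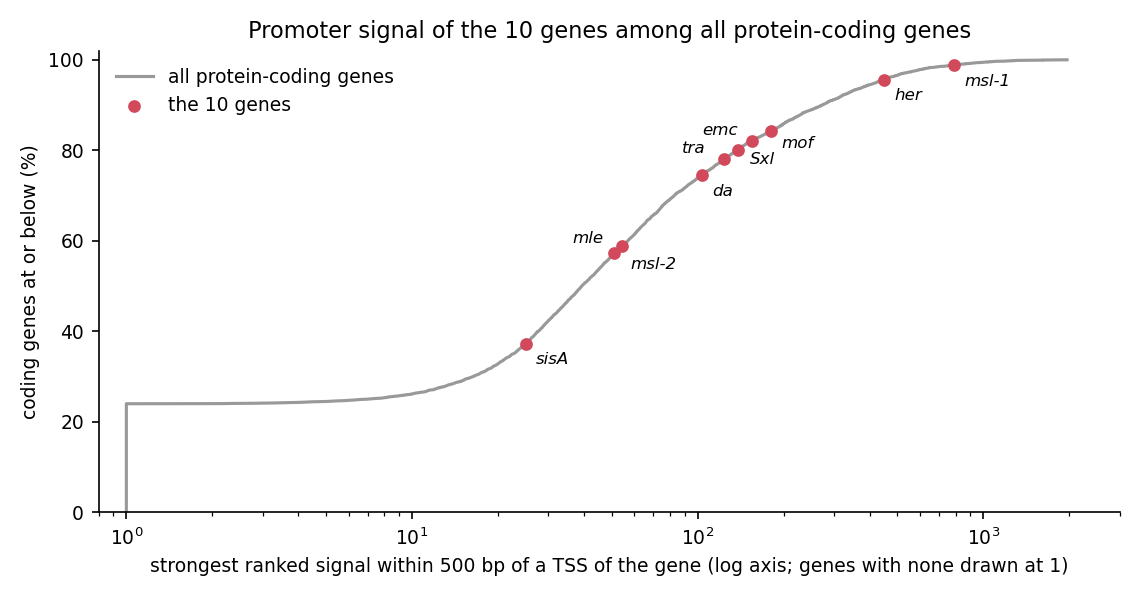
Strongest ranked signal within 500 bp of a TSS (log axis, authors' units) against the percentage of protein-coding genes at or below it, with the 10 genes as red points and genes without a ranked peak drawn at 1. The genes msl-1 (98.8%) and her (95.6%) stand near the top and sisA (37.3%) is the only one of the 10 below the median.

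Replicate 1 was higher at 9 of 9 conservative peaks, with a median log2 ratio of 0.69 and a range from 0.44 at mof to 1.18 at emc. Over 4453 conservative peaks with a value in both replicates, 91.7% were higher in replicate 1 and the median log2 ratio was 0.68. The offset of the 9 peaks was that of the whole list, and the files do not give the scaling that would remove it. All 9 overlapped a peak of the second list, 8 overlapped one of replicate 1 alone and 6 one of replicate 2 alone. For all conservative peaks these shares were 96.5%, 90.8% and 67.8%. The 3 without a peak in the list of replicate 2 were the weakest, at mle, in the Sxl intron and upstream of msl-1.

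Across the 9 conservative windows of 101 bp, 0 held a Runx match, against 4.72% of all 4488 windows. The BEAF-32 motif was in 2 of 9, tra and mof, against 38.1%, and ATCGAT in 2 of 9, her and mof, against 30.6%. The DREF motif TATCGATA, which contains ATCGAT, was in 0 against 15.2%. The M1BP motif was in 1, the late promoter of Sxl, against 4.32%. The E-box CANNTG was in 2, the Sxl intron and the peak 841 bp upstream of msl-1, against 39.5%. The GAGA motif GAGAGAGA, of the kind bound by CLAMP on the male X, was in 0 against 0.891%, and the Zelda motif was in 0 against 0.379%. With 9 windows, 1 more or fewer match moves any of these shares by 11.1 percentage points.

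Another 30 genes of the pathway give the wider setting. Of these, 14 had a conservative peak, against 37.4% of protein-coding genes. Genes that splice Sxl or methylate RNA had one in 6 of 8 cases, regulators of Sxl in 3 of 7, dosage compensation genes in 3 of 6, genes downstream of Sxl in 1 of 5 and germ line genes in 1 of 4. Signals below are for the strongest conservative peak in each window.

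Among the regulators, gro, the corepressor recruited by Runt domain and other proteins, had 380. The JAK kinase gene hop had 370 and its transcription factor gene Stat92E had 504. The activator run itself had no conservative peak, and replicate 1 alone gave 52.4 at a summit 165 bp upstream of its TSS. The Runt domain gene lz, named for comparison, had 0 conservative peaks. In the second list it had 82.2, at a summit 42 bp from the TSS of c11.1.

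Among the genes that splice Sxl or methylate RNA, Ythdc1, the nuclear reader of the mark, had 566, with its summit 80 bp from its own TSS and 32 bp from that of CG12010. The spliceosomal gene snf had 275 and the methyltransferase gene Mettl3 had 84.9, both near their own TSS. The peaks of the other 3 lay nearer to neighbours. That of nito (118) was 7 bp from the TSS of Septin5, that of vir (113) 3 bp from Ice1 and that of Hakai (113) 52 bp from CG10366. Hakai and nito each had a second peak near their own TSS, of 108 and 93.3. Of the strongest peaks, those of Mettl3, vir and Hakai were not in the thresholded list of replicate 2. No ranked peak of replicate 2 overlapped that of vir.

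Of the downstream genes, tra2, the partner of tra in splicing, had 200. Of the dosage compensation genes, the MSL subunit gene msl-3 had 151, the histone kinase gene JIL-1 416 and the topoisomerase gene Top2 393. The msl-3 peak was 124 in replicate 1 and 27.7 in replicate 2, and the thresholded list of replicate 2 did not hold it. The roX1 RNA gene was in the second list only, at 84.2, with the summit 707 bp from its nearest TSS. The roX2 RNA gene was in that of replicate 1 only, at 67.4. Clamp was in the second list, at 57.9, and in that of replicate 1. Of the germ line genes, Phf7, a chromatin reader of male germ cells, had 312.

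**Figure D5:**
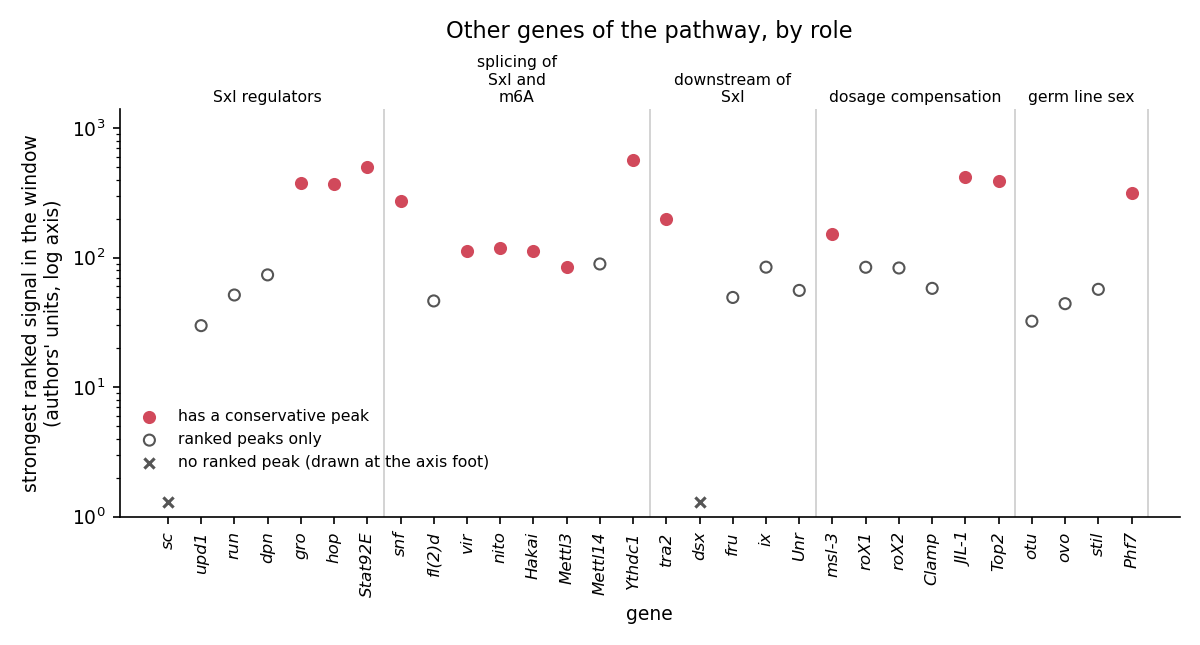
Strongest ranked signal (log axis, authors' units) in the window of 30 other genes of the pathway, grouped by role, with filled points for genes with a conservative peak, open points for genes with ranked peaks only and crosses for genes without a ranked peak in the series list. Filled points reach from 84.9 (Mettl3) to 566 (Ythdc1), and the splicing group has 6 of its 8 genes filled.

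The count of genes depended on the window and the strength of peak asked for. With 1 kb upstream in place of 2 kb it was 6 of 10 (34.6% of protein-coding genes), and with no upstream sequence 3 of 10 (12.8%). The summits lost in the latter case lay from 9 bp (her) to 1185 bp (mle) upstream of the gene start. Summits within 1 kb of a TSS of the gene gave 6 of 10 (33.6%), and each summit given only to the nearest protein-coding TSS also gave 6 of 10 (27.2%). Any overlap of a peak with the window gave 7 of 10 (38.8%). Of the stronger 50% of conservative peaks, with signals of 144 or more, 4 of 10 genes had one, her, emc, msl-1 and mof, against 23.2% of protein-coding genes. The Sxl peak at the late promoter, at 138, lies just below that limit.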

How the data were processed

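Peak lists on dm6, deposited for the series and for each of 2 biological replicates, were read as they stand. The signal of each peak is the authors' own value in the deposited lists, and the score is the scaled IDR score the authors deposited (all thresholded peaks at 830 or more). Aligner, caller, scaling and depth: not given in the sources used here. Control libraries were not analysed here. Chromatin was sheared by sonication, per the labels. The ranked lists of the series hold 16 further columns with values of single replicates, which were not used.

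The members and gene lists were chosen with earlier results of these data known. All 10 genes are named, with the gene at the nearest TSS where the peak lies nearer to it. Of the wider list, genes with a conservative peak plus run, lz and gro are named. The genes roX1, roX2 and Clamp were named after their values were seen. Gene positions came from Ensembl for the same assembly, and sequence was read from the RefSeq genome. A replicate's value is its own ranked peak that overlaps the peak, with the nearest summit. With 1 group no test between groups was made. The ATCGAT motif was added after the windows were read. Window assignment and motif search were tested on simulated data. Of 200 planted summits, placed inside a gene window or just outside it, 200 were called correctly. Of 600 planted motifs, 600 were found at their position. Python 3.11.15, numpy 2.4.6, pandas 2.3.3 and matplotlib 3.10.9 were used.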

Additional observations from a re-analysis of the deposited data

How the results depend on the processing

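The number of the 10 genes with a peak was 3 with no upstream sequence and 4 for the stronger 50% of peaks, against 7, and leaving out each replicate in turn gave 6 to 9. For the 30 wider genes it was 5 with no upstream sequence, against 14, where the shares of protein-coding genes were 12.8% and 37.4%. Without replicate 1 it was 12 (29.5% of protein-coding genes), and without replicate 2 it was 19 (43.7%). At the late promoter of Sxl the count went from 1 to 0 for the stronger 50% of peaks. At the early promoter it went from 0 to 1 with 2 kb to either side, which takes in the intron peak 1524 bp upstream. Both promoter counts were the same without either replicate, at 1 and 0. The other 31 recomputed counts of this kind were within 1.5 times the reported ones. Of the recomputed values for single genes and single motifs, 40 moved beyond their limit and 112 did not. That limit was 1.5 times for counts and the standard deviation of the 2 replicate signals for signals. For example, the count at mle went from 1 to 0 without replicate 1 and with 1 kb upstream. With windows of 100 bp to either side of the summit, M1BP was in 3 of 9 windows (Sxl, tra and mle), against 7.55% of all conservative windows. The E-box was in 4, against 61.6%, and Runx still in 0, against 8.96%. No paired analysis was possible because there is 1 group. Read depth is unknown, so an absent peak does not show absent binding.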
